A study of Mus musculus with 6 samples.

Results

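Islets of mice that lack Raptor in their beta cells were set against islets of wild-type mice, in 4 of the 6 sequenced libraries of the series. Both groups are C57BL/6 mice at an age of 8 weeks, and whole islets were used, so RNA of every islet cell type is in each library. WT stands for wild type and KO for the mice named βRapKO, whose Rptor gene was deleted in beta cells; the sources used here do not give the Cre line, and GFP appears in the deposited column name of each of the 4 libraries, with no explanation in the labels. The remaining group, βRapKO islets given Dnmt3a by lentivirus, entered an alternative fit only. Genes at 1 FPKM or more in at least 2 of the 4 libraries were kept, which left 11942 of 34745. Values were compared as log2(FPKM + 1), and a difference is the KO mean minus the WT mean on that scale, which understates the change of low genes. Whether replicates are different mice is not stated in the labels, so p-values describe only how much these libraries vary, and that variation may be technical.

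Raptor, the product of Rptor, brings substrates to the kinase mTOR in the complex mTORC1. Fed by amino acids, glucose and insulin, mTORC1 promotes cell growth: it raises ribosome production and the translation of mRNAs that start with a run of pyrimidines (TOP mRNAs, most of which encode ribosomal proteins and elongation factors), supports glycolysis and sterol synthesis through transcription factors, and restrains autophagy. In beta cells it is known for its part in cell mass, insulin production and the mature state.

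The targeted gene was read first. Rptor (ENSMUSG00000025583, chromosome 11, 119602905 to 119899576, GRCm38) stood at 0.800 and 1.06 FPKM in WT replicates 1 and 2 and at 0.378 and 1.51 FPKM in KO replicates 1 and 2. On its longest transcript these values rest on 1.29, 6.78, 3.55 and 7.75 inferred fragments. KO replicate 2 lay above both WT libraries and KO replicate 1 below both, so the library labelled KO replicate 2 does not show less Rptor, and the groups are named by their labels throughout. A gene-level value counts all exons and all islet cells and need not show an exon deleted in beta cells alone.

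Both groups hold 1 library rich in insulin RNA and 1 poor in it. Ins1 and Ins2 made up 0.170% and 23.9% of the summed FPKM in WT replicates 1 and 2 and 30.5% and 0.109% in KO replicates 1 and 2. Mitochondrially encoded genes held 44.8%, 26.5%, 16.5% and 50.9% in the same order. Inferred depth ran from 244750 fragments in WT replicate 1 to 1425743 in KO replicate 1, and genes above 0 from 10579 to 15758. The insulin-poor libraries are thus WT replicate 1, the shallowest, and KO replicate 2. Pearson's r of the log2 values across genes was 0.909 between WT replicate 2 and KO replicate 1, 0.701 within WT and 0.752 within KO; genes are not independent replicates. The median gene differed by 0.796 between the WT libraries, by 0.672 between the KO libraries and by 0.355 between the group means. For this reason each result is given also as 2 pairs of libraries of like insulin level, KO replicate 1 minus WT replicate 2 (insulin-rich) and KO replicate 2 minus WT replicate 1 (insulin-poor). The pairs were formed from measured insulin levels, not from the labels, and carry no test.

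limma called 0 of 11942 genes higher and 0 lower at an adjusted p of 0.05, a background of 0.0% each, with 147 genes at an unadjusted p under 0.05 and a smallest adjusted p of 1.0. Without WT replicate 2 it called 268 higher and 40 lower, with WT replicate 1 as the lone WT library. An exact test of 2 against 2 values cannot go below a two-sided p of 0.333. The groups are therefore described by whether they overlap. Both KO libraries lay above both WT libraries in 1047 genes (8.77%) and below both in 1333 genes (11.2%). These shares, 8.77% and 11.2%, are the background for every list below where no scaling is named. Of the non-overlapping genes 44.0% were higher in KO. After scaling each library to the same median the share was 53.9% (1346 higher and 1150 lower). After quantile normalization it was 51.6% (1293 higher and 1213 lower). List counts after a scaling are to be read against the counts of that scaling. The groups were at least 1 log2 unit apart in 121 higher genes (1.01%) and 59 lower genes (0.494%), and quantile normalization turned this to 47 higher against 52 lower. A kept gene at 0 in both libraries of a group is that far apart by construction, because the filter then needs 1 FPKM in both others: 106 of the 121 higher genes were listed at 0 in both WT libraries and 24 of the 59 lower genes in both KO libraries. Among the 60 protein-coding genes in that higher set, 58 were listed at 0 in WT replicate 1, the shallowest library, against 1869 of all 10569 protein-coding genes kept.

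Named genes of moderate level were those with the widest gap between the groups, which were picked for not overlapping, so their separation is a description. On the higher side stood hormone and neuropeptide genes. Pyy, which encodes peptide YY, was 512 and 1553 FPKM under the WT label against 3191 and 2712 FPKM under the KO label. Npy, neuropeptide Y, was 0 and 5.44 FPKM in WT against 32.2 and 13.6 FPKM in KO. At the depth of WT replicate 1, 3 fragments of Npy would have been worth 21.7 FPKM. A level like that of KO replicate 2 was therefore not detectable there, and the value of WT replicate 2 rests on only 3 inferred fragments. Pcp4, a calmodulin regulator, was 12.7 and 8.01 FPKM in WT against 23.0 and 60.0 FPKM in KO. In all of these the lower KO library exceeded the higher WT library, and Pyy and Npy were lowest in WT replicate 1.

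Single genes of vessels and stroma, Plvap and Mgp, were also among the 12, although 9 of 14 endothelial and 19 of 25 stellate and fibroblast markers had a lower mean in KO. Plvap, a protein of fenestrated endothelium, was 6.08 and 5.10 FPKM in WT against 22.3 and 10.8 FPKM in KO, with a difference of 1.33 (SE 0.61). Its values rest on 2.96 and 9.86 inferred fragments in WT and 63.1 and 16.8 in KO. Mgp, a matrix inhibitor of calcification, was 64.4 and 75.6 FPKM in WT against 123 and 166 FPKM in KO. Nfic, a transcription factor gene, was 7.24 and 8.14 FPKM in WT against 14.3 and 16.0 FPKM in KO, with a difference of 0.90 (SE 0.56). Celf4, Kiz and Tmem192 also lay higher in KO, with differences of 1.53, 2.35 and 2.55. Kiz and Tmem192 were listed at 0 in WT replicate 1.

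The remaining 3 of the 12 higher genes overlap a neighbour on the same strand. Gng10, a G protein gamma subunit, had no signal listed in either WT library and was 10.1 and 15.6 FPKM in KO. At the depth of the WT libraries 3 fragments of Gng10 would have been worth 10.3 and 2.58 FPKM, so a level near that of KO replicate 1 was not detectable in WT replicate 1. The gene Gm20503 overlaps it on the same strand, and the sum of both genes was 28.4, 16.7, 26.9 and 15.6 FPKM, with no separation. Tmsb15b1, a beta-thymosin, was 0 and 2.34 FPKM in WT against 22.4 and 14.6 FPKM in KO, while the sum with its near-identical overlapping neighbour Tmsb15b2 was 81.7 and 110 FPKM in WT against 107 and 111 FPKM in KO. Gm27029 overlaps Aarsd1, which was 1.08 and 11.4 FPKM in WT against 1.86 and 0.340 FPKM in KO. The sum of Gm27029 and Aarsd1 separated the groups, at 6.50 and 11.9 FPKM in WT against 13.6 and 17.9 FPKM in KO. A further neighbour on that strand, Ptges3l, was 3.39 and 3.41 FPKM in WT against 1.17 and 2.66 FPKM in KO. With both neighbours added to Gm27029, WT replicate 2 exceeded KO replicate 1, so the groups overlapped. How the authors' counting split reads between these neighbours is not given in the sources used here.

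On the lower side the widest gap belonged to Gnb1, which encodes a beta subunit of heterotrimeric G proteins. Gnb1 was 17.5 and 10.3 FPKM in WT against 2.02 and 1.78 FPKM in KO, a WT mean 7.30 times the KO mean and a difference of -2.32 (SE 0.57; limma adjusted p = 1.0). Both KO libraries, insulin-rich and insulin-poor, were low. Hmox1, heme oxygenase, was 25.1 and 20.8 FPKM in WT against 8.36 and 8.33 FPKM in KO. Mrpl14, a mitochondrial ribosomal protein gene, was 25.6 and 25.8 FPKM in WT against 10.6 and 8.03 FPKM in KO. In Hmox1 and Mrpl14 the libraries of a group lay closer to each other than the groups did. Mrpl14 rests on only 4.04 and 16.2 inferred fragments in WT and 9.70 and 4.04 in KO. Hmox1 rests on 9.63 and 31.7 in WT and 18.7 and 10.2 in KO. Counting error alone is therefore wide for both. Cmc1 and Slc7a6os were lower by the same measure, at -0.98 and -0.85.

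Immune genes were also among the 12 lower genes. Cd53, a leukocyte tetraspanin, was 25.8 and 18.9 FPKM in WT against 7.65 and 3.68 FPKM in KO. Bst2, an interferon-induced membrane protein, was 26.7 and 32.3 FPKM in WT against 8.26 and 11.7 FPKM in KO. The chemokine gene Ccl3 was 32.0 and 21.5 FPKM in WT against 9.15 and 11.7 FPKM in KO. For all of these genes both KO libraries lay below both WT libraries. Gm6665, Gm11808 and Gm42715 complete the lower genes with Eno1. Gm42715 overlaps Srcap on the same strand, and their sum was 12.3 and 12.3 FPKM in WT against 5.82 and 12.4 FPKM in KO, which overlap.

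**Figure D1:**
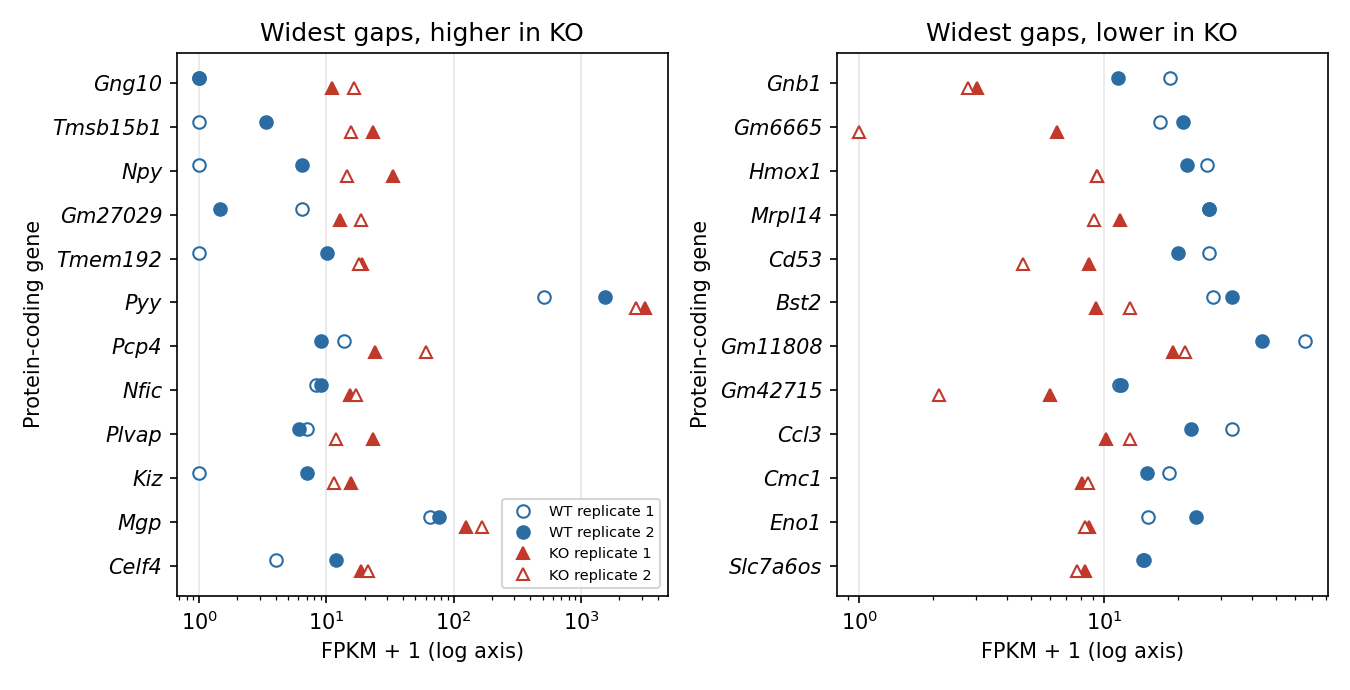
FPKM plus 1 on a log axis for the 12 protein-coding genes with the widest gap in each direction; circles are the WT-labelled and triangles the KO-labelled libraries, open symbols the insulin-poor ones. Each gene was chosen for not overlapping; Gnb1 sits at 2.02 and 1.78 FPKM in KO against 17.5 and 10.3 FPKM in WT, and Gng10 at 0 in both WT libraries.

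Genes of glycolysis and lactate metabolism lay lower in the libraries labelled KO. Of 25 members kept, 7 (28.0%, against 11.2% of all genes) were lower in both KO libraries than in both WT libraries and 0 were higher. With a 5 FPKM filter 3 of 15 members were lower and 0 higher. Over all 5423 genes kept by that filter, 580 were lower and 278 higher. The lower members Slc2a1, Slc16a3, Pfkfb3 and Gapdh did not pass it. The median difference over the list was -0.46, against 0.02 over all genes, and it was -0.43 in the insulin-rich and -0.34 in the insulin-poor pair. In both pairs 14 members (56.0%) were lower and 1 was higher, against 20.3% and 21.7% of all genes. The median was negative in every setting run, but it was -0.16 without WT replicate 2 and -0.05 without KO replicate 2. No member passed limma's adjusted test.

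The lower members run from the uptake of glucose to the export of lactate. Slc2a1, a glucose transporter chosen after seeing its values, was 4.70 and 7.67 FPKM in WT against 3.90 and 2.21 FPKM in KO. Tpi1, triosephosphate isomerase, was 36.2 and 66.9 FPKM in WT against 30.4 and 21.7 FPKM in KO, a difference of -0.91 (SE 0.65). Eno1, enolase, was 14.0 and 22.6 FPKM in WT against 7.67 and 7.33 FPKM in KO, a difference of -1.15 (SE 0.58). Both insulin-poor and insulin-rich KO libraries were below both WT libraries in Tpi1 and Eno1. With its near-identical copy Eno1b added, Eno1 was 28.0 and 27.3 FPKM in WT against 11.3 and 7.33 FPKM in KO, so the separation held for the sum.

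Lactate genes followed. Ldha, lactate dehydrogenase A, which is kept low in mature beta cells, was 45.4 and 18.1 FPKM in WT against 13.3 and 13.4 FPKM in KO, a difference of -1.05 (SE 0.67). The WT libraries differed from each other by more than WT replicate 2 did from KO. Slc16a3, a lactate exporter, was 1.40 and 2.70 FPKM in WT against 0.801 and 0.879 FPKM in KO, and Pfkfb3, which makes an activator of phosphofructokinase, was 1.3 and 1.25 FPKM in WT against 0.668 and 0.339 FPKM in KO. Gapdh was 3.79 and 2.26 FPKM in WT against 1.63 and 0.743 FPKM in KO, a level far under that of its neighbours in the pathway such as Pgam1 at 47.6 to 142 FPKM; Gapdh has many pseudogene copies, and its value is uncertain. Slc16a3, Pfkfb3 and Gapdh were named after their values were seen. Slc16a1, the lactate transporter kept off in beta cells, was under 1 FPKM in all 4 libraries.

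Other members did not separate the groups. Pcx, pyruvate carboxylase, was 2.87 and 27.6 FPKM in WT against 13.5 and 7.5 FPKM in KO, high in the insulin-rich libraries of both groups. The abundant enzymes Pkm, Aldoa and Pgam1 were also higher in the insulin-rich libraries, with WT replicate 2 highest and KO replicate 2 lowest. Pkm, for instance, was 134 and 277 FPKM in WT against 203 and 121 FPKM in KO. Within each pair the KO library was the lower one for all of them, as in the plot of glycolysis genes.

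**Figure D2:**
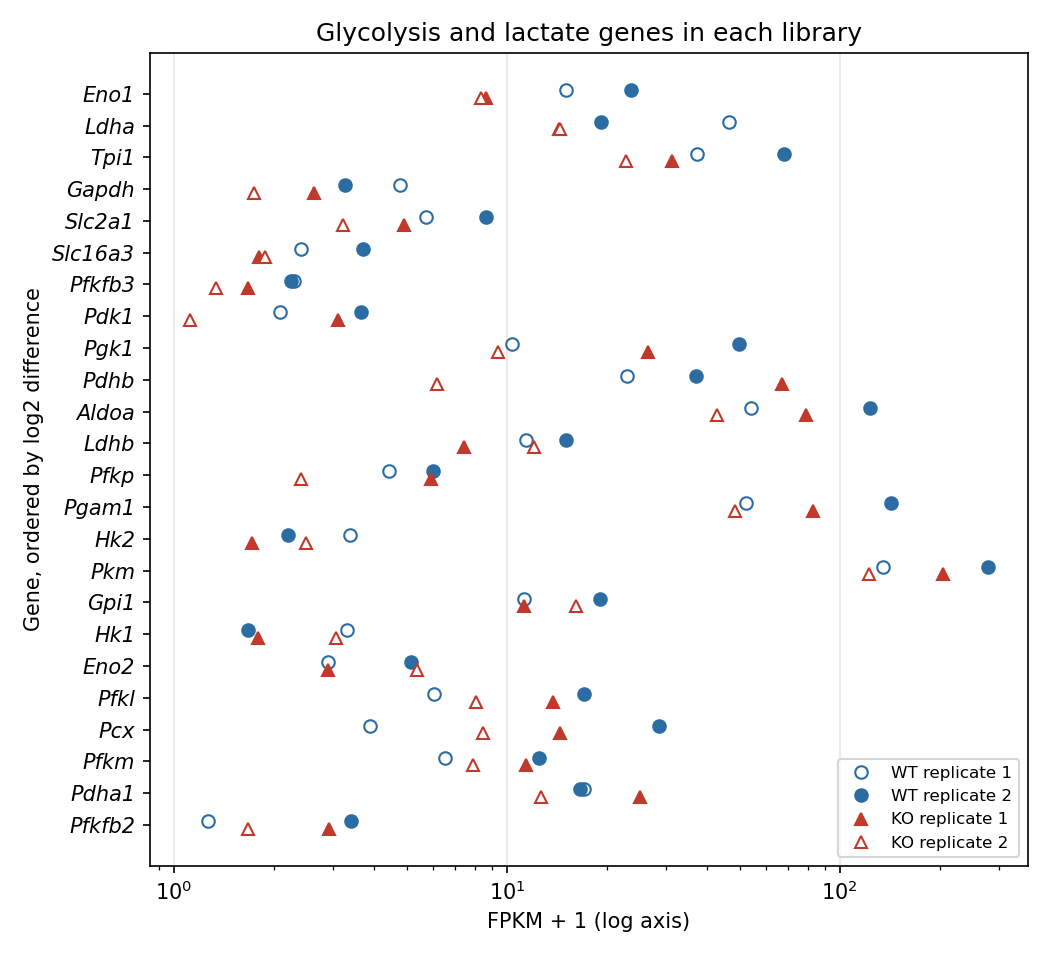
FPKM plus 1 on a log axis for 24 of the 25 glycolysis and lactate genes kept, ordered by their difference; circles are WT-labelled, triangles KO-labelled, open symbols insulin-poor libraries. In the first 7 genes, Eno1 to Pfkfb3, both triangles lie left of both circles.

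Promoters of these genes were read because HIF1A, a factor whose amount mTORC1 raises, binds a core of ACGTG. The letters ACGTG were sought on both strands from 250 bases before to 50 bases after each start in RefSeq (GRCm38.p6). They occurred for 62.5% of the 24 glycolysis genes with a promoter entry, 30% of 8298 protein-coding genes kept and 21.8% of all 27025 genes. Among the 7 genes lower without overlap 5 held them (71.4%), and among the other 17 members 10 did (58.8%). The core overlaps the E-box CACGTG, which MYC and the glucose-responsive factor ChREBP bind. A match describes letters, not binding, and promoters of like GC or CpG content were not compared. Windows of 30 bases are shown for genes of the pathway's entry, regulation and lactate end, 5′ to 3′ on the gene's strand with the core in capitals. They are Slc2a1 at chr4:119108697-119108726 on the plus strand, Pfkfb3 at chr2:11553972-11554001 on the minus strand, Ldha at chr7:46845744-46845773 on the plus strand and Slc16a3 at chr11:120949028-120949057 on the plus strand.
Slc2a1: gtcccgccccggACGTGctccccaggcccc
Pfkfb3: ctccgcgccgtgACGTGccaagctgtgacc
Ldha: cggcccagcctaCACGTgggttcccgcacg
Slc16a3: caggcagcggtgACGTGcgcgggggacgtg
In Ldha the capitals read the core on the opposite strand, and the next base completes the E-box. The Slc16a3 window ends in a further core, left in lower case.

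Cytosolic ribosomal protein genes, the main TOP mRNAs, lay lower in KO without overlap in 20 of 78 members kept (25.6%, against 11.2% of all genes) and higher in 2 (2.56%, against 8.77%). The list's median difference was -0.25. It came from the insulin-rich pair, where 69 members were lower and the median was -0.53; in the insulin-poor pair 34 members were lower and 43 higher, with a median of 0.15. Without KO replicate 1 the median was 0.06. The list therefore did not hold its direction across the pairs. Quantile normalization left 11 lower members and 1 higher, against 1213 lower and 1293 higher among all 11942 genes kept. Of the 82 genes, which every cell uses, 15 were listed at 0 in WT replicate 1, 2 in WT replicate 2, 0 in KO replicate 1 and 2 in KO replicate 2. Many have pseudogene copies, so levels of single members are uncertain.

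Members with the widest gaps were low in both KO libraries. Rpl19, of the large subunit, was 31.6 and 20.3 FPKM in WT against 10.3 and 14.3 FPKM in KO. Rps7, of the small subunit, was 51.0 and 38.5 FPKM in WT against 27.0 and 10.7 FPKM in KO. Rplp0, of the stalk, was 150 and 117 FPKM in WT against 84.2 and 88.1 FPKM in KO, with a difference of -0.61 (SE 0.62). WT replicate 1 was highest and the KO libraries lowest for these genes. Rpl6 and Rps2 differed by -0.70 and -1.07; an antisense gene, Snhg9, overlaps Rps2 and held more signal than Rps2 in each library, from 53.6 to 134 FPKM. The higher members without overlap included Rps29, with 4.94 and 4.52 FPKM in KO and a listed 0 in each WT library, which sets it apart by construction.

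The TOP start was looked for as a C followed by at least 4 pyrimidines beginning within 5 bases of the RefSeq start on the sense strand. It was found for 30 of 58 ribosomal genes with a promoter entry (51.7%), against 21.2% of all 27025 genes, and exactly at the annotated start for 14 (24.1%) against 3.01%. Among the ribosomal genes lower without overlap 9 of 15 had it (60.0%), and among the others 21 of 43 (48.8%). The run exactly at the annotated start went the other way, with 1 of 15 (6.67%) against 13 of 43 (30.2%). A run at the mRNA's own start is what links TOP mRNAs to mTORC1. Starts of 5 lower members are shown from 10 bases before to 20 after the annotated start, with the run in capitals. Their positions in GRCm38.p6 are chr11:114668570-114668599 (plus strand) for Rpl38, chr14:24490668-24490697 (plus) for Rps24, chr7:45718061-45718090 (plus) for Rpl18, chr7:45128726-45128755 (minus) for Rpl13a and chr11:98026700-98026729 (plus) for Rpl19.
Rpl38: aagcctcgttCTTTCCCCgttctcttcggt
Rps24: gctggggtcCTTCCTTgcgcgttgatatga
Rpl18: ctcgcaggccgCTCTTTCCCCgcccactcc
Rpl13a: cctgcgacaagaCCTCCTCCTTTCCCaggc
Rpl19: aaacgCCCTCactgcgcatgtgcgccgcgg
The runs differ in length and place: Rpl38 begins its run at the annotated start, and Rpl13a has the longest. In Rpl18 and Rpl13a the run begins after the annotated start. In Rpl19 it lies wholly before that start, so by the annotation it is not part of the mRNA. Rpl38 was 154 and 118 FPKM in WT against 82.3 and 106 FPKM in KO. Rpl13a was 483 and 478 FPKM in WT against 220 and 470 FPKM in KO, so its lower mean rests on KO replicate 1. TOP elements act on translation, which these RNA levels do not measure.

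Translation factors counted 10 lower (21.7%) and 4 higher (8.70%) members without overlap of 46, and a median difference of -0.12. After quantile normalization the counts were 3 lower and 4 higher, so the balance of the counts turned with scaling. The balance over all genes kept turned as well, from 1333 lower and 1047 higher to 1213 lower and 1293 higher. Eef1b2, an exchange factor of elongation, was 20.2 and 14.8 FPKM in WT against 9.37 and 7.5 FPKM in KO. Eef1a1, the main elongation factor and a TOP mRNA, was 192 and 193 FPKM in WT against 166 and 153 FPKM in KO. Eif4e, the cap-binding protein held back by 4E-BP and chosen after seeing its values, was 4.69 and 4.86 FPKM in WT against 3.12 and 1.65 FPKM in KO. All of these were low in both KO libraries, while Eef1a2, the form used in neurons and muscle and also named afterwards, had a listed 0 in each WT library and was 3.36 and 25.8 FPKM in KO. Eef1a2, kept with 0 in both WT libraries, is apart by construction. Ribosome biogenesis factors split evenly, with 4 higher and 4 lower members of 43 (9.30% each) and a median difference of 0.02. Nop2, an rRNA methyltransferase, was 0 and 3.38 FPKM in WT against 6.69 and 8.01 FPKM in KO, and Ubtf, a factor of rRNA transcription, was 7.56 and 8.16 FPKM in WT against 2.92 and 5.04 FPKM in KO.

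In the mTOR pathway itself the counts were near the background: 5 of 47 members (10.6%) lower and 2 (4.26%) higher without overlap, with a median difference of -0.08. The median was -0.13 in the insulin-rich and 0.09 in the insulin-poor pair. Mtor, the kinase, was 3.19 and 2.94 FPKM in WT against 2.86 and 1.67 FPKM in KO. Rictor, the subunit of mTORC2, was 1.76 and 7.83 FPKM in WT against 6.55 and 4.82 FPKM in KO, and its groups overlapped. The stress-induced inhibitors went different ways: Ddit4 was 33.9 and 26.8 FPKM in WT against 18.7 and 8.36 FPKM in KO, and Sesn1 was 2.46 and 5.56 FPKM in WT against 7.59 and 10.8 FPKM in KO. Insr, the insulin receptor, was 7.41 and 7.25 FPKM in WT against 4.55 and 6.60 FPKM in KO. Akt2, a kinase downstream of it, and Ddit4l were lower by 0.85 and 1.07 and Wdr59, of the GATOR complex, higher by 0.36; these were named after their values were seen. The substrates overlapped between groups: Eif4ebp1, a 4E-BP, was 54.1 and 77.5 FPKM in WT against 80.1 and 31.3 FPKM in KO, and Rps6kb1, S6 kinase, 7.92 and 6.73 FPKM in WT against 7.06 and 3.67 FPKM in KO. Tsc1 and Tsc2, which restrain mTORC1, overlapped as well.

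Other processes that mTORC1 controls were also close to the background. Cholesterol and fatty acid synthesis had 3 higher (8.57%) and 4 lower (11.4%) of 35 members. Hmgcs1, an early enzyme of sterol synthesis, was 7.58 and 9.21 FPKM in WT against 18.7 and 13.9 FPKM in KO, both KO libraries above both WT libraries. Gpam, which starts triglyceride synthesis and was chosen after seeing its values, was 3.20 and 2.95 FPKM in WT against 0.549 and 0 FPKM in KO. Autophagy and lysosome genes had 4 higher (9.09%) and 3 lower (6.82%) of 44. The higher ones were close to WT: Gabarap, which coats autophagosomes, was 124 and 116 FPKM in WT against 127 and 130 FPKM in KO. ATF4 targets had 3 lower of 36 (8.33%), among them Trib3 at 15.5 and 14.6 FPKM in WT against 8.63 and 10.1 FPKM in KO.

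Cell cycle genes had 9 lower (32.1%) and 2 higher (7.14%) of 28 members kept, with a median difference of -0.27 that was -0.19 in the insulin-rich and -0.11 in the insulin-poor pair. It was 0.07 without WT replicate 2 and 0.04 without KO replicate 2, so its sign rests on those libraries. Cdc20, an activator of the anaphase ubiquitin ligase, was 5.33 and 6.25 FPKM in WT against 0 and 1.67 FPKM in KO. Pcna, the sliding clamp of DNA replication, was 9.31 and 10.5 FPKM in WT against 7.39 and 2.92 FPKM in KO. Cdkn1a, the inhibitor p21, was 31.9 and 42.1 FPKM in WT against 28.3 and 28.3 FPKM in KO. The lower members thus included an inhibitor beside genes of replication and mitosis. Named after their values were seen, Ube2c was 4.41 and 9.24 FPKM in WT against 1.51 and 1.38 FPKM in KO, Mcm3 1.83 and 2.60 FPKM in WT against 0.523 and 0.382 FPKM in KO, and Top2a 1.52 and 3.16 FPKM in WT against 0.653 and 0.955 FPKM in KO. Most of these levels rest on few fragments, and 13 of the 38 list entries were listed at 0 in WT replicate 1. Cdkn1b, the inhibitor p27, was higher, at 3.77 and 6.64 FPKM in WT against 8.60 and 7.10 FPKM in KO.

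**Figure D3:**
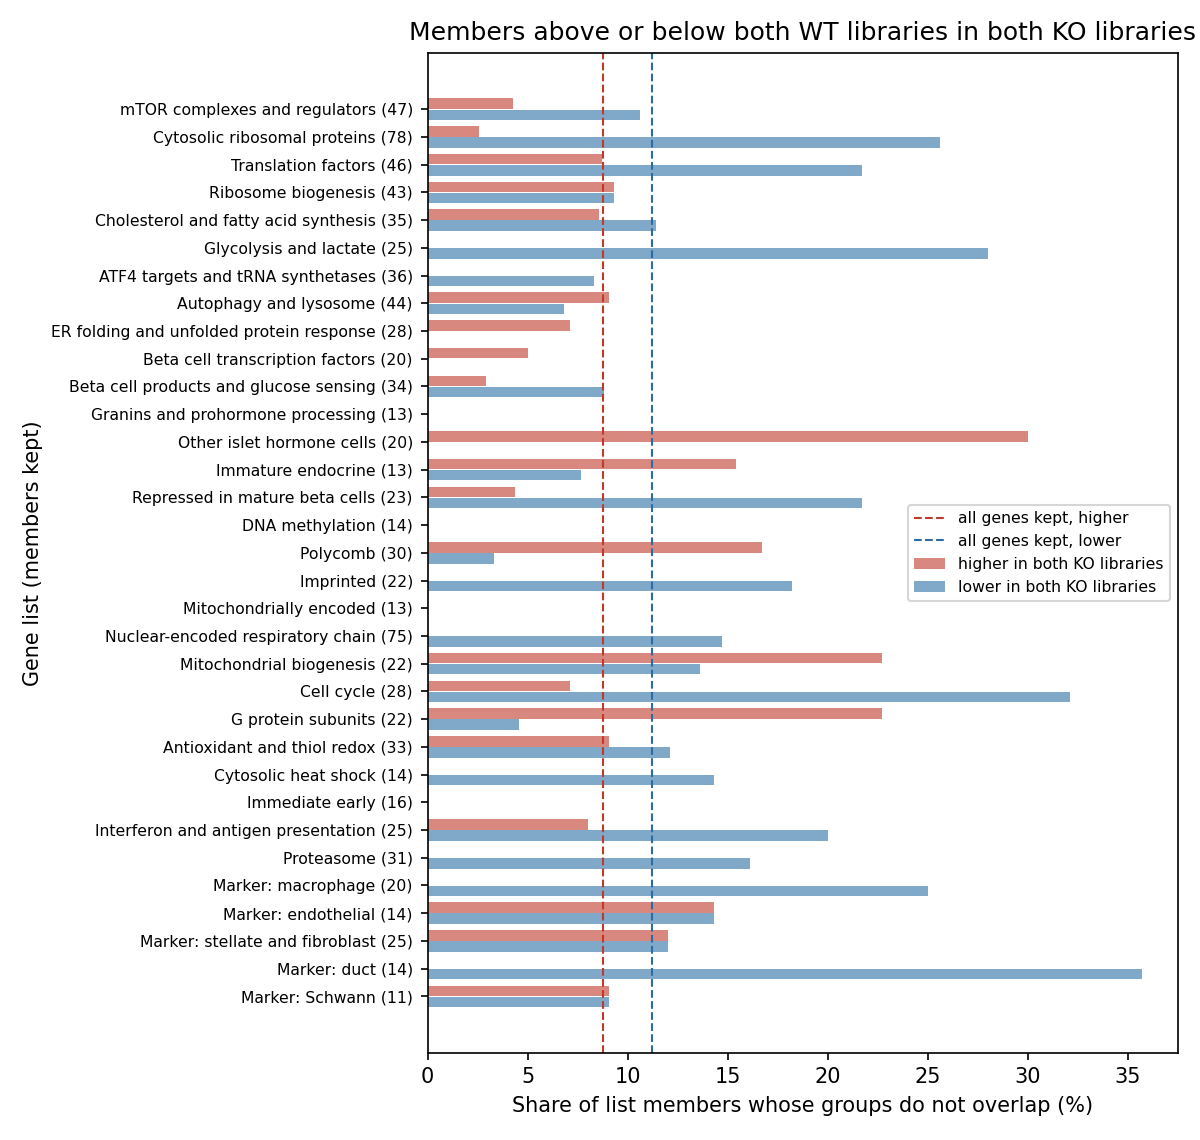
Share of each list's members above (red bars) or below (blue bars) both WT libraries in both KO libraries, for lists with at least 10 members kept; dashed lines give the shares among all genes kept, 8.77% higher and 11.2% lower. Duct markers (35.7%), cell cycle (32.1%) and glycolysis (28.0%) have the longest lower bars, and other hormone cells the longest higher bar (30%), followed by G protein subunits and mitochondrial biogenesis (22.7% each).

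Hormone genes of the other islet cells lay higher in the libraries labelled KO. Of 20 members kept, 6 (30%, against 8.77% of all genes) lay above WT in both KO libraries and 0 below; the list's median difference was 0.02 and -0.04 after rescaling without the most abundant RNAs, and 4 members stood apart after quantile normalization. Ppy, pancreatic polypeptide, was 1178 and 6511 FPKM in WT against 18361 and 8399 FPKM in KO. Sst, somatostatin, was 443 and 2560 FPKM in WT against 4873 and 2736 FPKM in KO. Gcg, the glucagon gene of alpha cells, was 1245 and 1197 FPKM in WT against 1623 and 2454 FPKM in KO. WT replicate 1 was lowest for Ppy and Sst, and KO replicate 1 highest, whereas for Gcg the WT libraries were alike and KO replicate 2 highest.

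Ghrl, ghrelin, was 0 and 2.25 FPKM in WT against 9.53 and 6.18 FPKM in KO, and Rbp4, a retinol carrier high in alpha cells, was 15.8 and 31.7 FPKM in WT against 47.0 and 59.3 FPKM in KO. Ghrl overlaps an antisense gene, Gm26982, which was at most 3.55 FPKM. At the depth of WT replicate 1, 3 fragments of Ghrl would have been worth 13.8 FPKM, above both KO values. The Ghrl value of WT replicate 2 rests on 1.95 inferred fragments. Hhex, a transcription factor gene of delta cells, did not separate the groups, at 6.79 and 3.42 FPKM in WT against 3.50 and 5.54 FPKM in KO. In such bulk samples more cells of a type and more RNA per cell cannot be told apart. The hormone genes also moved with the insulin-rich state in WT, where Ppy and Sst were higher in replicate 2, and the part of that in the difference was not tested.

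The levels of the main beta cell genes differed more between the libraries of a group than between the groups. Ins1 was 647 and 100772 FPKM in WT against 119077 and 416 FPKM in KO. Its difference of -0.20 had an SE of 3.18. Pdx1, the transcription factor of beta cells, was 17.0 and 98 FPKM in WT against 76.0 and 27.9 FPKM in KO, and Ucn3, a mark of maturity, 5.53 and 337 FPKM in WT against 205 and 20.8 FPKM in KO. For each of these genes the insulin-rich libraries were high and the insulin-poor ones low in both groups. Mafa, another maturity factor, was 0 and 2.85 FPKM in WT against 0.649 and 0 FPKM in KO and was not kept. Slc2a2, the glucose transporter of beta cells, was 0 and 20.7 FPKM in WT against 10.8 and 0.719 FPKM in KO.

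Beta cell transcription factors had 14 of 20 members with a higher mean in KO, 1 higher without overlap (5.0%) and 0 lower. Their median difference of 0.34 was 0.04 in the insulin-rich and 0.61 in the insulin-poor pair and -0.20 without WT replicate 1. In both pairs 10 of the 20 (50%) were higher, against 21.7% of all genes, as were 13 of 34 beta cell products and glucose sensing genes (38.2%). Within the pairs the best-known genes did not all point one way. In the insulin-rich pair Pdx1 was lower in KO by 0.36, Ucn3 by 0.71 and Nkx6-1 by 0.74, and Ins1 was higher by 0.24. In the insulin-poor pair Pdx1, Ucn3 and Nkx6-1 were higher in KO by 0.68, 1.74 and 0.20, while Ins1 and Ins2 were lower, at 416 against 647 FPKM and 277 against 332 FPKM. Granins and prohormone enzymes had a median difference of 0.69, which was 0.21 in the insulin-rich and 1.46 in the insulin-poor pair, and 0 of 13 members separated the groups. Pcsk2, the prohormone convertase, was 39.8 and 345 FPKM in WT against 535 and 98.6 FPKM in KO. Of the beta cell products and glucose sensing genes 3 of 34 (8.82%) were lower without overlap, among them Gipr, the receptor of the incretin GIP, at 10.3 and 25.4 FPKM in WT against 9.97 and 6.64 FPKM in KO; Kcnj11, a channel subunit closed by ATP, was the 1 higher member, at 6.97 and 6.13 FPKM in WT against 12 and 7.65 FPKM in KO.

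**Figure D4:**
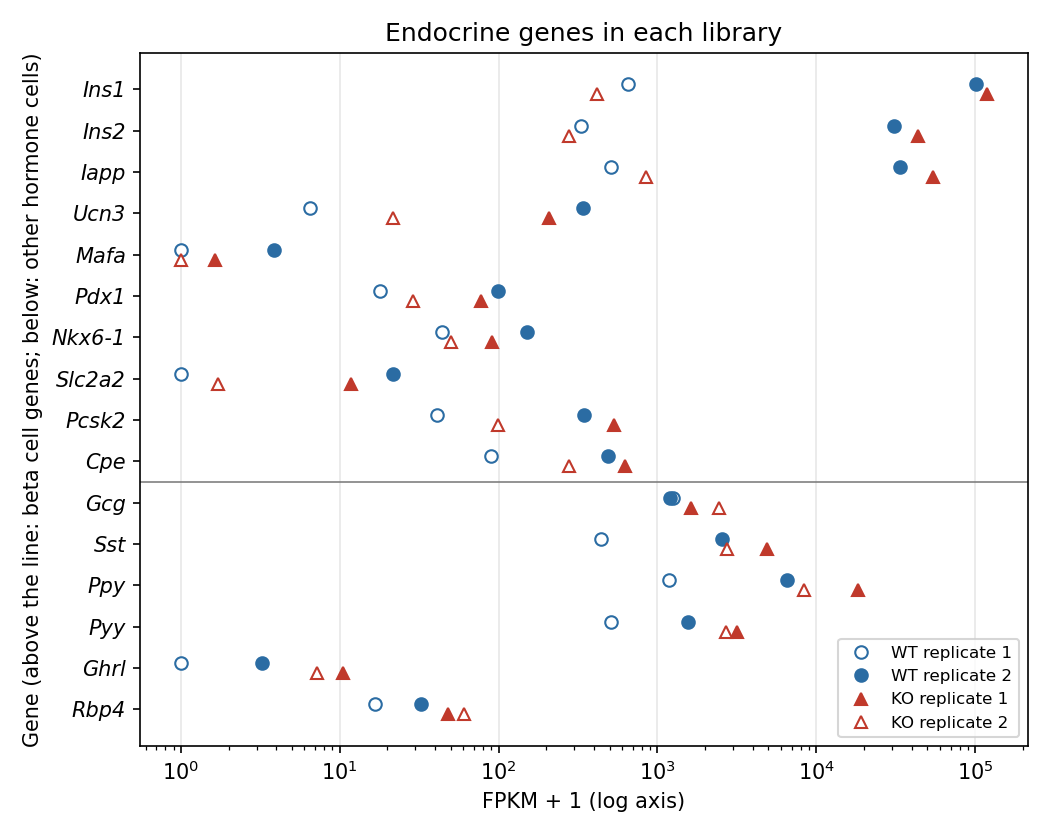
FPKM plus 1 on a log axis for beta cell genes (above the line) and genes of other hormone cells (below); circles are WT-labelled, triangles KO-labelled, open symbols insulin-poor libraries. Ins1 spans 416 to 119077 FPKM with 1 library of each group at either end, while for Pyy, Ppy, Ghrl and Rbp4 both triangles lie right of both circles.

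Genes that are repressed in mature beta cells had 5 lower (21.7%) and 1 higher (4.35%) of 23 members, with a median difference of -0.46. That median was 0.06 in the insulin-rich pair and -0.75 in the insulin-poor pair, and it was 0.06 without WT replicate 1 and -0.65 without KO replicate 2, so its sign rests on WT replicate 1. Fcgrt, the neonatal Fc receptor, was 25.9 and 15.4 FPKM in WT against 10.5 and 6.63 FPKM in KO. Oat, ornithine aminotransferase, was 24.6 and 10.5 FPKM in WT against 7.81 and 5.95 FPKM in KO. WT replicate 1 was highest for both. The list also holds Ldha, and Mgst1, a glutathione transferase gene, was 17.7 and 2.54 FPKM in WT against 1.01 and 0.791 FPKM in KO. Dnmt3a, the DNA methyltransferase that helps repress such genes, was 2.94 and 4.43 FPKM in WT against 3.19 and 2.50 FPKM in KO, and 0 of 14 DNA methylation genes separated the groups, though 2 were lower without overlap after median scaling and 3 after quantile normalization.

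Nuclear-encoded subunits of the respiratory chain had 11 lower (14.7%) and 0 higher of 75 members, with a median difference of -0.27, which was -0.02 in the insulin-rich and -0.54 in the insulin-poor pair. Ndufa5, of complex I, was 69.5 and 44.8 FPKM in WT against 36.8 and 30.3 FPKM in KO. Cox6c, of complex IV, was 18.1 and 14.1 FPKM in WT against 13.2 and 3.36 FPKM in KO. KO replicate 2 was the lowest library for both. Proteasome subunits had the same form, with 5 lower (16.1%) and 0 higher of 31 and medians of 0.26 and -0.59 in the pairs. Without KO replicate 2 the respiratory chain median was 0.18 and the proteasome median 0.25, so both signs rest on that library. Mitochondrially encoded genes had 0 of 13 separated and medians of -0.85 and 0.20.

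**Figure D5:**
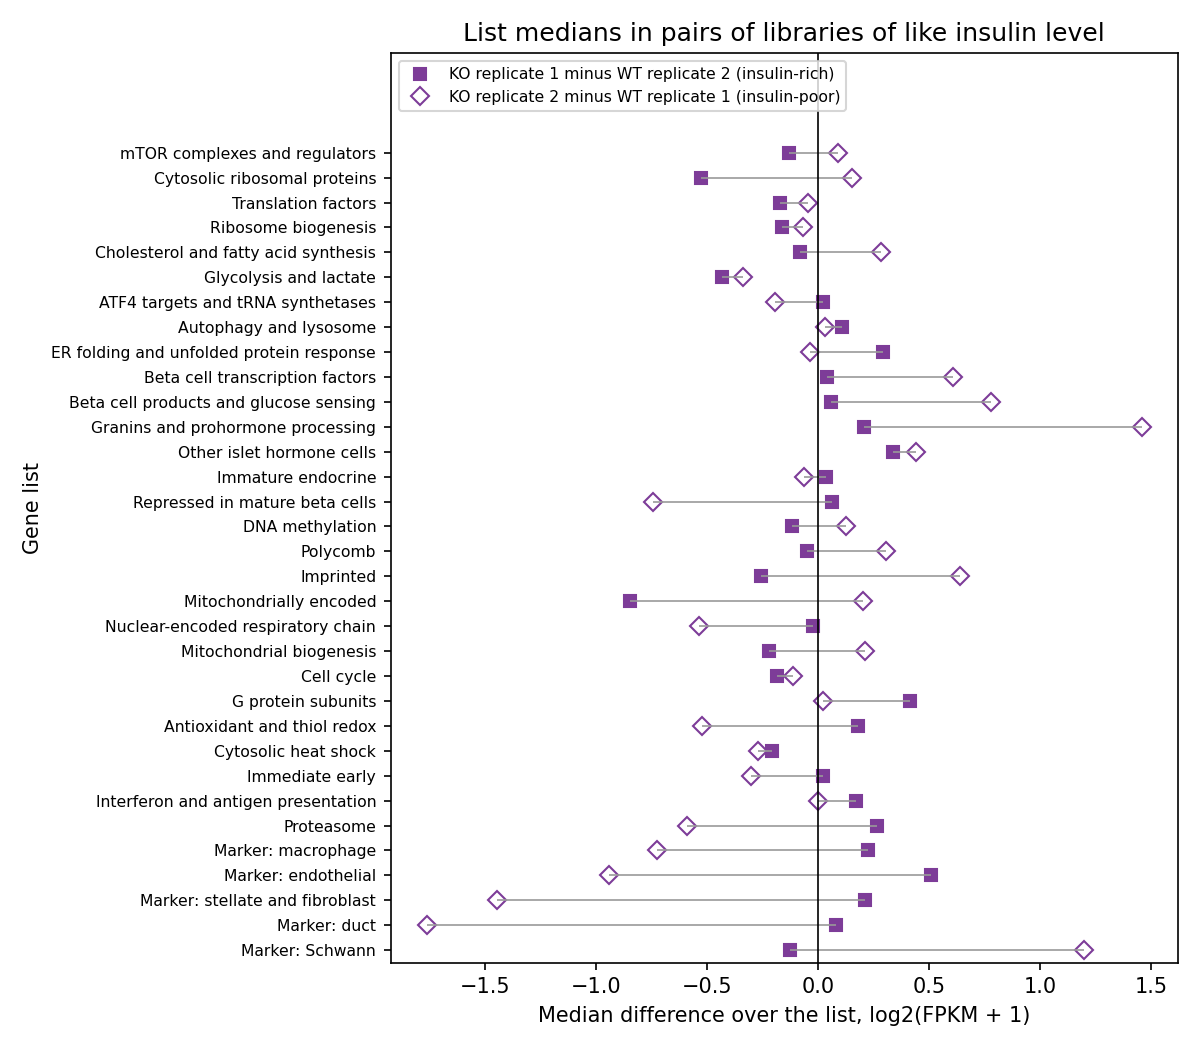
Median difference in log2(FPKM + 1) over each list in the insulin-rich pair (filled squares) and the insulin-poor pair (open diamonds), joined by a line. Glycolysis is negative in both, at -0.43 and -0.34, and other hormone cells positive in both, while ribosomal proteins and markers of stroma and duct lie on opposite sides of 0.

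Heterotrimeric G protein subunits had 5 higher (22.7%) and 1 lower (4.55%) of 22 members, the lower one being Gnb1. Gnaq, the alpha subunit that couples receptors to phospholipase C, was 9.22 and 15.6 FPKM in WT against 17.3 and 16.0 FPKM in KO. Gna12 was 0 and 1.82 FPKM in WT against 4.05 and 5.40 FPKM in KO, and Gng2 was 4.41 and 2.40 FPKM in WT against 4.66 and 5.30 FPKM in KO; both were named after their values were seen, as was Gnal. Gng10 is uncertain for the overlap given above. Gng10, Gna12 and Gnal were listed at 0 in WT replicate 1, the shallowest library, where 7 of the 25 list entries stood at 0. Polycomb genes had 5 higher (16.7%) and 1 lower (3.33%) of 30, all named after their values were seen. The list's median was -0.05 in the insulin-rich and 0.31 in the insulin-poor pair. Bmi1, a subunit of the ubiquitin ligase complex, was 1.90 and 2.55 FPKM in WT against 4.13 and 4.77 FPKM in KO, and Cbx7, a reader subunit of that complex, was 0.578 and 1.16 FPKM in WT against 2.43 and 1.81 FPKM in KO. Ezh1, Pcgf3 and Pcgf5 differed by 0.41, 0.61 and 1.56, and the lower gene, Cbx8, by -0.90. These are low levels, and WT replicate 1 was lowest for Bmi1, Cbx7, Pcgf3 and Pcgf5.

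Redox genes held 3 higher (9.09%) and 4 lower (12.1%) of 33 members, near the background. Their median was 0.18 in the insulin-rich and -0.53 in the insulin-poor pair. Txnrd1, thioredoxin reductase, was 19.1 and 29.8 FPKM in WT against 39.0 and 40.9 FPKM in KO. Keap1, the sensor that holds NRF2 in check, was 5.73 and 6.55 FPKM in WT against 8.77 and 10.3 FPKM in KO. Gpx4, which reduces lipid peroxides, was 32.0 and 22.3 FPKM in WT against 22.3 and 6.39 FPKM in KO. Hmox1, described above, was the lower member with the widest gap.

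Markers of other cells in the islet preparation also differed between the libraries. Macrophage markers had 5 lower (25.0%) and 0 higher of 20, and their summed level was 704 and 603 FPKM in WT against 626 and 380 FPKM in KO. Cd68 was 19.8 and 24.8 FPKM in WT against 9.5 and 11.2 FPKM in KO, and Lyz2, lysozyme, was 239 and 234 FPKM in WT against 169 and 154 FPKM in KO, whereas the complement gene C1qa was 55.0 and 77.0 FPKM in WT against 146 and 32.0 FPKM in KO. Ms4a4a was 9.77 and 11.1 FPKM in WT and listed at 0 in both KO libraries; it has close relatives in the Ms4a4 family. The list's median was 0.23 in the insulin-rich and -0.73 in the insulin-poor pair. Cd53, Ccl3 and Bst2, lower above, are also expressed by such cells, and the part of macrophage RNA in their values was not tested.

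Most duct and stromal markers were highest in WT replicate 1, namely 9 of 14 duct and 18 of 25 stromal members; Mgp and Rgs5 were lowest there, and Thy1 was lower in WT than in KO, at 7.07 and 4.74 FPKM against 9.30 and 11.1 FPKM. Duct markers summed to 2940 and 534 FPKM in WT against 643 and 396 FPKM in KO, with 5 of 14 (35.7%) lower without overlap and medians of 0.08 and -1.77 in the insulin-rich and insulin-poor pair. Mmp7, a duct-cell protease chosen after seeing its values, was 639 and 4.81 FPKM in WT against 2.63 and 3.60 FPKM in KO. Spp1, osteopontin, was 1510 and 111 FPKM in WT against 102 and 48.9 FPKM in KO. The markers of stellate cells and fibroblasts summed to 2107 and 564 FPKM in WT against 699 and 890 FPKM in KO, with 3 lower and 3 higher of 25 (12% each). Col1a1, a fibrillar collagen gene, was 474 and 94.9 FPKM in WT against 90.6 and 136 FPKM in KO, and the microfibril gene Mfap2 was 17.3 and 8.06 FPKM in WT against 1.69 and 1.55 FPKM in KO. Ldha, Oat, Fcgrt and Cd44 were also highest in WT replicate 1, and the part of duct and stromal RNA in them was not tested.

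Acinar, lymphocyte and red cell markers were at or near 0. The acinar enzymes Prss2, Cpa1, Pnlip and Amy2a5 were at 0 in all 4 libraries, while Cela1, an elastase, had a listed 0 in each WT library and was 5.72 and 10.5 FPKM in KO. Cd3e, Cd79a, Hba-a1 and Hbb-bs were also at 0. Cela1, kept with 0 in both WT libraries, is apart by construction. At the depth of WT replicate 1, 1 fragment on 2 kb is worth 2.04 FPKM, so a listed 0 there does not show absence. Endothelial markers had 2 higher and 2 lower of 14 (14.3% each): Pecam1 was 4.10 and 2.29 FPKM in WT against 1.80 and 0.714 FPKM in KO, against the higher Plvap. Schwann markers had 1 higher and 1 lower of 11 (9.09% each), and Sox10 was highest in KO replicate 2 at 5.67 FPKM.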

How the data were processed

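Islet poly-A RNA was sequenced, 2 libraries for each of 3 groups, following the protocols in the labels. Per the file headers, the authors deposited 1 FPKM value per gene and library. The submitters' processing notes list the mm10 genome, HISAT2 2.0.4, StringTie 1.3.0 and edgeR without their roles. Symbols came from GENCODE M21 by gene identifier. Depth was inferred from genes with 1 transcript, whose values up to 20 fragments were whole multiples of 1 fragment within 0.01 for 84.4% to 90.8%. It gives counting error only. At it 1 fragment on 2 kb is worth 2.04, 0.513, 0.351 and 0.641 FPKM in WT replicates 1 and 2 and KO replicates 1 and 2.

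The 4 libraries entered a limma 3.58.1 fit (R 4.3.3; trended, robust, two-sided, Benjamini-Hochberg over all genes kept), tested on simulated data. Tables and figures used Python 3.11.15, numpy 2.4.6, pandas 2.3.3 and matplotlib 3.10.9. The members and 38 gene lists (1105 of 1107 entries matched) were chosen with earlier results of these data known. Named genes were Rptor; 12 protein-coding genes each way with the widest gap between groups, at 10 FPKM or more in both libraries of the higher group; up to 5 non-overlapping members per list at 5 FPKM or more; a fixed set of islet, mTOR and metabolic genes; and the 4 highest macrophage and stromal markers. Others are given as named after their values were seen, or carry the glycolysis and cell type marker lists. As alternatives, a pseudocount of 0.1, all genes above 0, a 5 FPKM filter, median and quantile scaling, rescaling without the most abundant RNAs, all 6 libraries, no trend, a replicate block, and leaving out libraries singly and by insulin level were tried. The crossed block and the fit without WT replicate 2 and KO replicate 1 were added after the values were seen. Deviations of same-numbered libraries correlated at -0.29, so the numbers were not taken as pairs.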

Additional observations from a re-analysis of the deposited data

How the results depend on the processing

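limma called 0 genes in each direction with a pseudocount of 0.1, with no filter, with a 5 FPKM filter, after each scaling, with all 6 libraries, without the trend, and with the replicate block (122 genes at an unadjusted p under 0.05, against 147). The block by number has no support in the labels; the crossed block, added after the values were seen, also called 0, with 391 genes at an unadjusted p under 0.05. With single libraries left out the calls ran from 0 to 268 higher and from 0 to 40 lower; all were made without WT replicate 2, where WT replicate 1 alone stands for WT and is assumed to vary like KO. Genes with groups at least 1 log2 unit apart, 121 higher and 59 lower, numbered 10 and 23 with the 5 FPKM filter, 47 and 52 after quantile normalization and 175 and 113 with a pseudocount of 0.1. Without single libraries they ran from 202 to 1909 higher and from 204 to 703 lower. In the insulin-rich pair alone they were 605 and 728, and in the insulin-poor pair 2527 and 1651; fewer libraries make a gap easier to reach.

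Some single genes changed direction, and for each the lowest and highest difference with libraries left out, pairs included, follows. Rptor ran from -0.58 to 0.48, Ins1 from -4.28 to 3.88, Ins2 from -3.53 to 3.77, Iapp from -2.31 to 3.73, Ucn3 from -2.33 to 3.36, Pdx1 from -1.07 to 1.39 and Nkx6-1 from -1.16 to 0.62. Slc2a2 ran from -2.27 to 2.17, Cpe from -0.22 to 2.23 and Pcsk2 from -0.58 to 2.50. Rictor ran from -0.41 to 1.27, Tsc1 from -0.65 to 0.27, Tsc2 from -1.96 to 0.55, Eif4ebp1 from -1.02 to 0.30 and Rps6kb1 from -0.93 to 0.059. C1qa ran from -1.0 to 1.15, C1qb from -0.64 to 0.23, Sparc from -1.23 to 0.48, Col1a1 from -2.08 to 0.22 and Col3a1 from -2.50 to 0.50. Ins2 was also -0.028 after quantile normalization and Slc2a2 1.05 with a pseudocount of 0.1. The cause was not tested. The shallow depth of WT replicate 1, where 3 fragments on 2 kb come to several FPKM, limits genes listed at 0 there.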
